A study of Rattus norvegicus with 54 samples.

Results

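Hyaluronan and versican form the loose provisional matrix of a healing tissue, and 9 genes of this matrix were followed through the infarcted rat heart. The genes were the synthases Has1 and Has2, the proteoglycan Vcan, the link proteins Hapln1 and Hapln3, the hyaluronan cross-linker Tnfaip6, the receptor Cd44 and the hyaluronidases Hyal1 and Hyal2. They were chosen by name for their roles, with earlier results of these data known. Matching by symbol found all 9 among the 40319 genes counted in each of the 54 libraries. All hearts came from female athymic F344/NJcl-rnu/rnu rats given as 8 weeks old, and all tissue was collected 1 week after surgery. Of the 18 rats, 6 had a sham operation, 6 had the left anterior descending artery ligated for good and stayed untreated (MI), and 6 had the same ligation and a bi-level sheet of human smooth muscle cells and endothelial progenitor cells laid on the epicardium over the ischemic area (MI + Cell Sheet). Polyadenylated RNA was sequenced from 3 places in each left ventricle, the anterior wall (infarct zone), the lateral wall (border zone) and the septum (remote zone). In sham hearts these names mark a position and no lesion, and the sham and untreated MI hearts carried no sheet. The values below are counts on rat genes, and how many reads of the human sheet cells were counted on rat genes in the treated hearts was not tested.

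Hyaluronan is a long, unbranched sugar chain that synthases in the plasma membrane spin out of nucleotide sugars made in the cytosol. Outside the cell it is bound by versican, a large chondroitin sulfate proteoglycan, and link proteins lock the pair together, while the product of Tnfaip6 transfers protein chains onto hyaluronan. The swollen gel that results is laid down early in wounds, is held by cells through Cd44, and is cleared by hyaluronidases before collagen scar takes its place.

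Promoter windows are shown for the members whose transcripts moved together after infarction and for the hyaluronidase that moved the other way. Each window holds 250 bases before and 50 bases after the transcription start, read 5′ to 3′ along the gene from RefSeq on the GRCr8 assembly, where 7 of the 9 members were matched (all but Has2 and Hapln3). The windows lie at chr1:67378395-67378694 on the minus strand for Has1, chr2:22595906-22596205 on the minus strand for Vcan (1 of its 2 listed starts), chr3:56911148-56911447 on the plus strand for Tnfaip6 and chr8:117129061-117129360 on the plus strand for Hyal1. Capitals mark matches to the motifs described after the sequences.
Has1: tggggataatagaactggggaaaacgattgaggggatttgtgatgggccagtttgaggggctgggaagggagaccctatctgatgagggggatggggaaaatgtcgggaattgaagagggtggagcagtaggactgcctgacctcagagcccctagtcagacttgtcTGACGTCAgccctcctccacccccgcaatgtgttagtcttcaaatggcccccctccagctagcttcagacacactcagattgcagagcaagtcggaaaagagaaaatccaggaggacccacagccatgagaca
Vcan: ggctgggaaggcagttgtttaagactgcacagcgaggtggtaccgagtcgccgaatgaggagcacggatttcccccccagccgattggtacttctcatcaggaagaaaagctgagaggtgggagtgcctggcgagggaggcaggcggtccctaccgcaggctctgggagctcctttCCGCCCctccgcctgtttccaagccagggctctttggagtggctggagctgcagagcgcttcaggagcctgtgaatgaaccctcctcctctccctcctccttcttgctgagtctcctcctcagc
Tnfaip6: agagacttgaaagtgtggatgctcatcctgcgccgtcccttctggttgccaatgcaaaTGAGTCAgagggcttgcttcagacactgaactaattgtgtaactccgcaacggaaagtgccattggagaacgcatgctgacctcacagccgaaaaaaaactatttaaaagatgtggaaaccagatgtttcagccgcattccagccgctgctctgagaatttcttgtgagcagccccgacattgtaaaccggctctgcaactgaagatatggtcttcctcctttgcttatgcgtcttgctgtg
Hyal1: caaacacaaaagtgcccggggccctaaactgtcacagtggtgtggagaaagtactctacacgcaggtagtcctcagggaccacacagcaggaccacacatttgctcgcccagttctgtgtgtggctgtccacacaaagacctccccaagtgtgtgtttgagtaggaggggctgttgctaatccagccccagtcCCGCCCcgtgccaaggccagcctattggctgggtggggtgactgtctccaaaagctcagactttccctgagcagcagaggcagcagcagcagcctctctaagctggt

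In the Has1 window the capitals are a CRE motif (TGACGTCA), which starts 83 bases before the transcription start and stands in 1.83% of all 33469 RefSeq windows of this length. The Tnfaip6 window holds an AP-1 motif (TGANTCA), 192 bases before the start and present in 7.33% of all windows. In Vcan and in Hyal1 the capitals mark an Sp1 motif (GGGCGG, found here on the opposite strand), which 33.1% of all windows hold. Both strands were searched for 8 motifs, and no matched letters overlapped another match. The Hyal2 window held a STAT motif (TTCCNGGAA, 1.27% of all windows) and an Sp1 motif. None of the 7 windows held the letters of the TATA box (TATAAA), and none held the motif of the TCF and LEF factors (CTTTGAT). An E-box spelled CATATG was in no window either, nor was the motif that C/EBP and ATF proteins bind as a pair (TGATGCAA). No motif was shared by the 3 windows of the genes that rose. In the gene order of the same assembly, Vcan and Hapln1 are direct neighbours on chromosome 2 and Hyal1 and Hyal2 on chromosome 8, with 0 genes between the members of either pair.

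The libraries held 12699204 to 23397754 counts on genes. Levels are given as CPM, a gene's counts scaled to a common library total with TMM factors, and they are compared between samples of a gene and not between genes, since no gene lengths were used. Differences are log2 fold changes ± SE from edgeR's quasi-likelihood test with Benjamini-Hochberg adjustment over all genes tested. Whether the groups of a gene overlapped was recorded for the members and the pathway genes alone, so no share over all genes stands beside it. There were 2 hearts that stood apart and that are followed through the results. They stood apart in levels of the members themselves. Fits without them therefore show how far a result depends on 1 heart, and their adjusted p-values are not independent tests. All 3 libraries of sham replicate 5 had Cd44 levels of 236 to 269 CPM against 15.1 to 33.4 CPM in the other 15 sham libraries. In the same 3 libraries the summed level of 5 macrophage genes was 544 to 600 CPM against 114 to 227 CPM, that of 4 myofibroblast genes 338 to 378 CPM against 56.8 to 122 CPM, and that of 6 cardiomyocyte genes 14220 to 25060 CPM against 39000 to 52850 CPM. The remote zone library of cell sheet-treated replicate 1 had 418 CPM of Vcan against 60.03 to 138 CPM in the other 5. Its 6 fibroblast genes summed to 31000 CPM against 2826 to 9293 CPM, its 4 myofibroblast genes to 3486 CPM against 144 to 459 CPM, and its cardiomyocyte genes to 16750 CPM against 32770 to 51000 CPM. The border zone library of the same heart had 119 CPM of cardiomyocyte genes against 6518 to 18930 CPM in the other 5. Its macrophage genes summed to 1744 CPM against 323 to 1180 CPM. The part of these marker levels in the results was not tested.

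The comparison of untreated MI with sham asked what infarction alone did to the matrix genes. Has1, Has2, Vcan and Tnfaip6 rose in all 3 zones, by 2.38-fold to 4.51-fold, and Hyal1 fell in the infarct and border zones. Cd44, Hapln3 and Hyal2 passed the test in no zone, and Hapln1 rose in the remote zone alone among the 3 separate tests. In the infarct zone 5 of 9 members passed, 4 of them higher, where 49.9% of the 15758 genes tested passed, 22.7% higher and 27.2% lower. The border zone count was also 5 of 9, with 4 higher and 1 lower, against 41.7% of all genes (18.4% higher and 23.2% lower). In the remote zone 5 of 9 passed, all higher, against 25.8% (11.7% higher). The median log2 fold change over the 9 members was 1.01, 0.91 and 1.42 for the infarct, border and remote zones in turn, beside -0.02, -0.02 and -0.04 over all genes tested. Markers of cell types moved in the same libraries. All 6 cardiomyocyte genes fell in the infarct zone and all 4 myofibroblast genes (Postn, Acta2, Cthrc1, Fap) rose, with 4 of 6 fibroblast and 4 of 5 macrophage genes higher. Also higher there were 3 of 3 neutrophil genes tested and 2 of 4 mural cell genes, and 1 of 4 endothelial genes was lower. In the remote zone 3 of 6 cardiomyocyte and 1 of 4 mural cell genes fell. There 4 of 4 myofibroblast, 5 of 6 fibroblast, 2 of 5 macrophage and 3 of 3 neutrophil genes tested rose. In bulk tissue a change in the number of cells of a type and a change in the RNA per cell cannot be told apart, and the part of these markers in the member values was not tested.

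Of the synthases, Has1 stood at 1.97, 3.95 and 6.70 CPM (lowest, median and highest) in the sham infarct zone and at 8.12, 12.1 and 19.4 CPM in the untreated MI infarct zone. The lowest MI library lay above the highest sham library, and the change was 1.65 ± 0.33 (adjusted p = 0.00227). Border zone Has1 rose by 1.43 ± 0.24 (adjusted p = 0.00154), again without overlap. In the remote zone it ran from 4.80 to 21.6 CPM with a median of 10.4 CPM in MI hearts and from 1.40 to 5.26 CPM with a median of 2.78 CPM in sham hearts. There 5 of 6 MI libraries lay above all sham libraries, and the change was 1.77 ± 0.39 (adjusted p = 0.00655).

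Has2, the synthase that makes long chains and is needed for the embryonic heart cushions, went from 3.00, 4.91 and 7.16 CPM in the sham infarct zone to 10.1, 10.9 and 13.7 CPM in the MI infarct zone. The groups did not overlap, and the change was 1.25 ± 0.22 (adjusted p = 0.00126). Has2 also rose in the border zone, by 1.56 ± 0.32 (adjusted p = 0.00432), and 5 of 6 MI libraries exceeded every sham library. In the remote zone the change was 1.42 ± 0.37 (adjusted p = 0.0143). The lowest remote MI library, at 3.12 CPM, lay inside the sham range of 2.69 to 6.80 CPM.

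Vcan was measured at 49.0, 67.7 and 187 CPM in the sham infarct zone, where the highest value is replicate 5. In the MI infarct zone it stood at 223, 278 and 292 CPM, all above every sham library, a change of 1.59 ± 0.30 (adjusted p = 0.00166). The spread was narrow in this group, with a mean of 263 ± 29.8 CPM (SD, n = 6) against 86.8 ± 51.5 CPM in sham. The border zone change of Vcan was 1.87 ± 0.26 (adjusted p = 0.000505), from 54.9 to 149 CPM in sham to 209 to 390 CPM in MI. The remote zone change was 1.54 ± 0.32 (adjusted p = 0.00462), with 5 of 6 MI libraries above all of sham. Without sham replicate 5 the 3 Vcan changes were 1.98, 2.13 and 1.89.

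Tnfaip6, which is induced by inflammatory signals and stabilizes the hyaluronan network, stood at 4.85, 5.92 and 11.1 CPM in the sham infarct zone and at 14.3, 16.8 and 22.1 CPM in the MI infarct zone. The groups were separate, and the change was 1.36 ± 0.22 (adjusted p = 0.000702). Its border zone change was 2.17 ± 0.42 (adjusted p = 0.00305). Here the 6 MI libraries were spread widely, from 12.9 to 56.5 CPM with a median of 18.5 CPM, while the sham libraries lay between 4.39 and 9.64 CPM. The remote zone change was 1.43 ± 0.32 (adjusted p = 0.0071), and 4 of 6 MI libraries lay above all sham libraries.

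**Figure D1:**
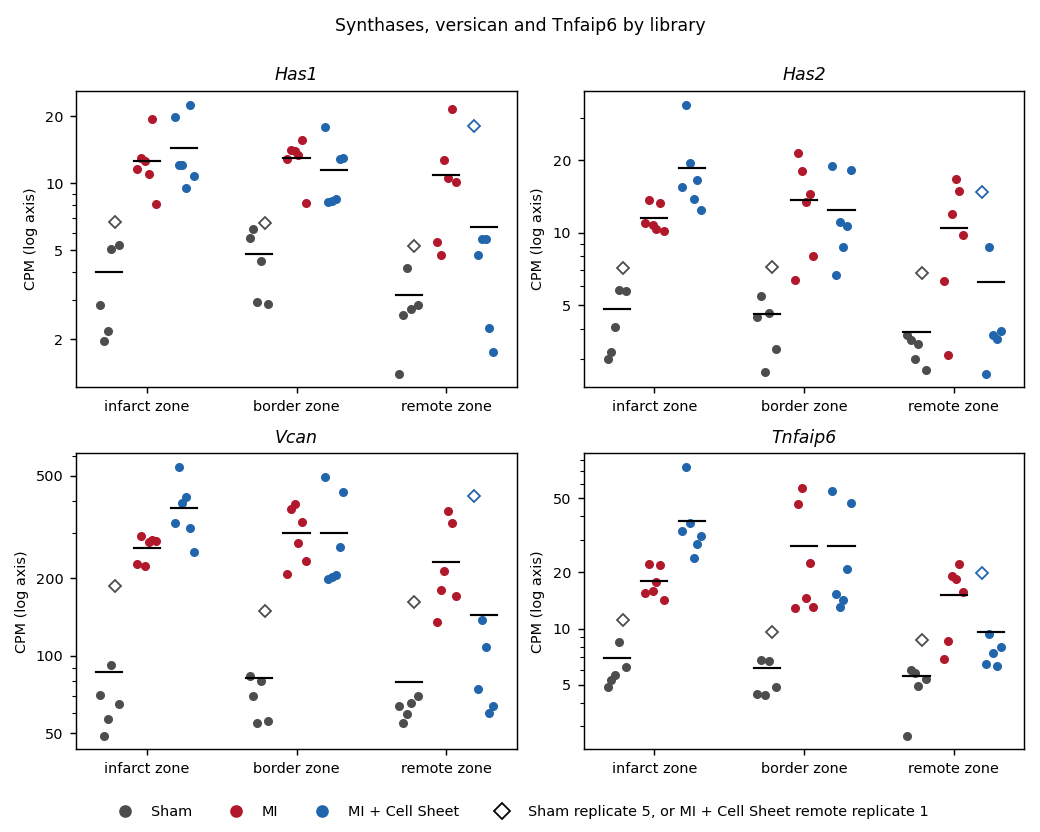
Levels in CPM (log axis) of Has1, Has2, Vcan and Tnfaip6 in each of the 54 libraries by zone and treatment; each point is 1 library, the bar is the group mean, and open diamonds mark sham replicate 5 in each zone and the remote library of cell sheet-treated replicate 1. In the infarct zone no untreated MI library of these 4 genes falls to the level of a sham library, and in the remote zone 5 of the 6 cell sheet-treated libraries of Vcan lie at 138 CPM or less while the diamond is at 418 CPM.

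Cd44, the main cell surface receptor for hyaluronan, was 18.9, 22.4 and 236 CPM in the sham infarct zone and 86.2, 95.7 and 178 CPM in the MI infarct zone. Every MI library exceeded 5 of the 6 sham libraries, and the sixth, replicate 5, exceeded every MI library. With all 12 libraries the change was 1.01 ± 0.66 (adjusted p = 0.214). Without sham replicate 5 it was 2.41 ± 0.24 in the infarct zone (adjusted p = 2.15e-05), 2.35 ± 0.31 in the border zone (adjusted p = 0.000107) and 1.47 ± 0.17 in the remote zone (adjusted p = 2.86e-05). In edgeR's test without a block Cd44 was thus called in each zone when this heart was left out and not when it was kept, and a block on the replicate number called it in the infarct zone with the heart kept. Since the heart was set apart by its Cd44 level among others, the adjusted p-values without it are not an independent test of Cd44.

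Hyal1, a lysosomal hyaluronidase, stood at 9.34, 14.4 and 17.5 CPM in the sham infarct zone and at 6.47, 8.32 and 13.5 CPM in the MI infarct zone. The ranges overlapped, with 5 of 6 MI libraries below all sham libraries, and the change was -0.68 ± 0.19 (adjusted p = 0.0121). In the border zone Hyal1 fell by 0.74 on the log2 scale (SE 0.23, adjusted p = 0.022), from a mean of 14.9 ± 4.72 CPM to 8.92 ± 2.02 CPM (SD, n = 6 each). The remote zone value was -0.52 ± 0.21 (adjusted p = 0.079), and -0.62 ± 0.18 (adjusted p = 0.0126) without sham replicate 5. Leaving out sham replicate 3 or MI replicate 3 ended the border zone call, at -0.58 (adjusted p = 0.0535) and -0.66 (adjusted p = 0.0505). Both calls were also lost when libraries were scaled to their total counts without TMM factors, which moved the median of all genes by 0.26 (infarct) and 0.19 (border). Under that scaling the split of members higher and lower was 4 to 0 in the infarct zone, beside 4 to 1, and 5 to 0 in the border zone, where Hyal2 was the fifth. Hyal2, the neighbouring hyaluronidase that is anchored at the cell surface, lay between 38.5 and 59.7 CPM in the sham infarct zone and between 41.5 and 53.4 CPM in the MI infarct zone. Its changes were -0.08 ± 0.12 (infarct), 0.15 ± 0.10 (border) and 0.06 ± 0.11 (remote).

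**Figure D2:**
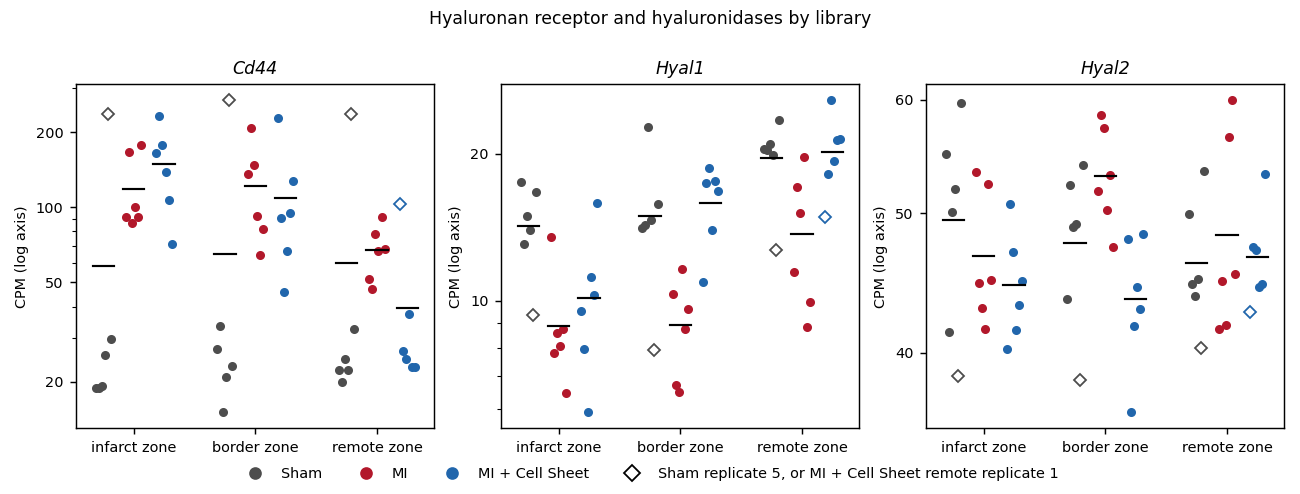
Levels in CPM (log axis) of Cd44, Hyal1 and Hyal2 in each library by zone and treatment; each point is 1 library, the bar is the group mean, and open diamonds mark sham replicate 5 and the remote library of cell sheet-treated replicate 1. The Cd44 diamonds of sham replicate 5 lie at 236 to 269 CPM, above all other sham libraries, and Hyal2 stays between 36.4 and 59.95 CPM throughout.

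The link proteins were scarce, so that counting error is a larger share of their spread. Hapln1 had 1 to 34 counts in the sham remote zone (0.068, 0.907 and 1.94 CPM) and 14 to 243 counts in the MI remote zone (1.07, 3.85 and 16.4 CPM). There 5 of 6 MI libraries exceeded every sham library, and the change was 2.45 ± 0.71 (adjusted p = 0.024). The highest library, MI replicate 4, was followed by one at 5.23 CPM, and without it the value was 1.71 and no longer passed. The call was also lost without sham replicate 1 or 3. In the infarct and border zones the Hapln1 changes were 0.05 ± 0.78 and 0.40 ± 0.54. Hapln3 lay between 0.159 and 2.40 CPM in all sham and MI libraries, and its changes were 0.02 ± 0.49 (infarct), 0.78 ± 0.40 (border) and -0.58 ± 0.36 (remote), none of which passed.

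**Figure D3:**
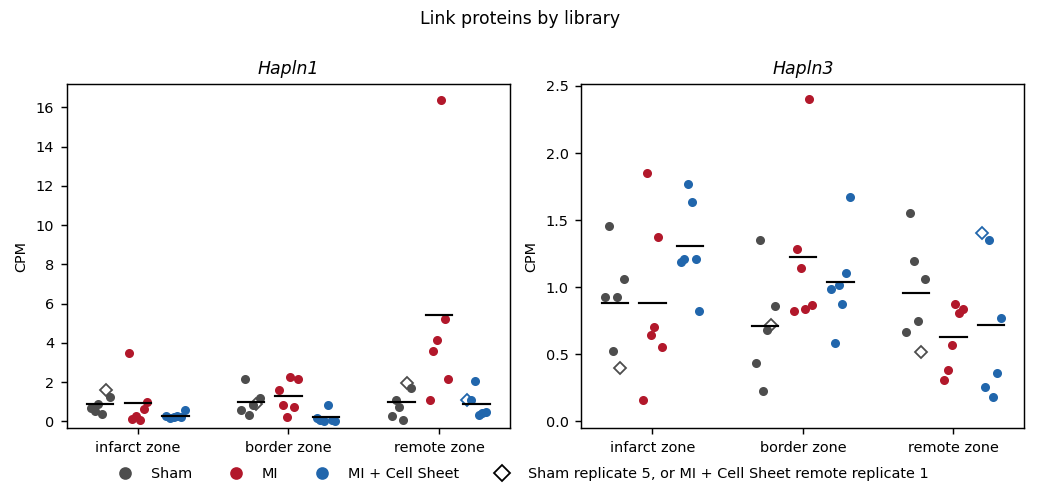
Levels in CPM of Hapln1 and Hapln3 in each library by zone and treatment; each point is 1 library, the bar is the group mean, and open diamonds mark sham replicate 5 and the remote library of cell sheet-treated replicate 1. Hapln1 is highest in the untreated MI remote zone, where 1 library at 16.4 CPM stands above the others, and it is at 0.831 CPM or less in the cell sheet-treated border zone.

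Infarct and remote zones of the same hearts were compared to ask where in the ventricle the genes differed. In sham hearts only Hyal1 passed among 9 members (32.4% of all genes did), with a change of -0.46 ± 0.09 from remote to infarct position (adjusted p = 0.000951). It was lower at the infarct position in 6 of 6 hearts. In these sham libraries 3 of 6 cardiomyocyte genes were lower and 1 higher, and 1 of 4 myofibroblast, 3 of 4 mural cell and 2 of 4 endothelial genes were lower. Higher at the infarct position were 4 of 6 fibroblast, 4 of 5 macrophage and 2 of 3 neutrophil genes tested. In untreated MI hearts only Cd44 passed (36.4% of all genes did), higher in the infarct zone by 0.80 ± 0.24 (adjusted p = 0.0328) and in 5 of 6 hearts. This call was lost without any of MI replicates 1, 2, 4 or 6. In the MI libraries 5 of 6 cardiomyocyte, 3 of 4 endothelial and 1 of 4 mural cell genes were lower in the infarct zone. Higher there were 4 of 6 fibroblast, 3 of 4 myofibroblast and 3 of 5 macrophage genes. So were 2 of 4 mural cell, 1 of 3 neutrophil and 1 of 4 mesothelial genes tested. What part these markers had in the member values was not tested. Has1, Has2, Vcan and Tnfaip6 differed between these zones of MI hearts by 0.33 ± 0.25, 0.28 ± 0.33, 0.27 ± 0.19 and 0.33 ± 0.24, and none passed. The effect of MI itself was then compared between the zones through an interaction term in a fit that blocked on the animal. Cd44 alone passed among the members (28.9% of all genes did), with an MI effect larger by 0.90 ± 0.27 in the infarct zone (adjusted p = 0.0227). Without sham replicate 5 this difference was 0.92 ± 0.29 (adjusted p = 0.0376), and the call was lost without sham replicate 3, without MI replicate 6 or without the animal block, with values from 0.69 to 1.06 over the 12 fits that left out 1 heart. For Has1, Has2 and Tnfaip6 the difference of the MI effect was 0.02 ± 0.40, -0.03 ± 0.41 and 0.01 ± 0.32.

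In cell sheet-treated hearts 6 of 8 members tested differed between the infarct and remote zones, 5 of them higher and 1 lower in the infarct zone, where 62.8% of all genes did (31.5% higher and 31.4% lower). Tnfaip6 was higher in the infarct zone by 2.01 ± 0.33 (adjusted p = 0.00335), with all 6 infarct zone libraries (23.96 to 73.8 CPM) above all 6 remote zone libraries (6.29 to 19.8 CPM). Cd44 was higher by 2.08 ± 0.33 (adjusted p = 0.00327), Vcan by 1.77 ± 0.41 (adjusted p = 0.0085), Has2 by 1.75 ± 0.44 (adjusted p = 0.0114) and Has1 by 1.49 ± 0.43 (adjusted p = 0.0201). Vcan was higher in 5 of 6 hearts and the other 4 genes in 6 of 6. Hyal1 ran the other way in 6 of 6 hearts, at -1.02 ± 0.22 (adjusted p = 0.00608). All 6 cardiomyocyte genes were lower in the infarct zone of the same hearts, with median sums of 1933 CPM against 41020 CPM in the remote zone, and 5 of 6 fibroblast, 4 of 4 myofibroblast and 5 of 5 macrophage genes were higher. Of the genes tested, 3 of 3 neutrophil, 1 of 4 mural cell and 1 of 4 mesothelial genes were also higher, and 2 of 4 endothelial genes were lower. The part of these markers in the member values was not tested. Whether these zone differences exceed those of untreated MI hearts was not tested between the infarct and remote zones, and the interaction tests that were run are given with the comparison of the treatments.

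The comparison of cell sheet-treated with untreated MI hearts asked what the sheet changed in the infarcted heart. In the infarct zone no member passed, and no gene of 16196 passed by edgeR (0% of all tested), whereas 3 members and 1341 genes had an unadjusted p under 0.05 and DESeq2 called 85 genes, among them Tnfaip6. It stood at 14.3, 16.8 and 22.1 CPM in untreated and at 23.96, 32.3 and 73.8 CPM in treated infarct zones, so that every treated library lay above every untreated one. The edgeR value was 1.08 ± 0.25 (adjusted p = 0.472). Has2 had 0.69 ± 0.22 (adjusted p = 0.484) and Vcan 0.51 ± 0.17 (adjusted p = 0.497), each with 5 of 6 treated libraries above all untreated ones. The values of Has1, Cd44, Hyal1 and Hyal2 were 0.19 ± 0.25, 0.32 ± 0.28, 0.19 ± 0.24 and -0.07 ± 0.09. Hapln1 was too scarce to be tested here, at 4 to 10 counts in the treated libraries.

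In the border zone 2 of 9 members passed, 1 in each direction, against 18% of 16272 genes (8.47% higher and 9.48% lower). Hyal1 was higher with the sheet by 0.85 ± 0.17 (1.81-fold, adjusted p = 0.00592). It stood at 6.51, 9.18 and 11.6 CPM in untreated and at 10.9, 17.1 and 18.7 CPM in treated border zones, and 5 of 6 treated libraries exceeded every untreated one. The treated mean of 15.9 ± 2.90 CPM lay beside 14.9 ± 4.72 CPM in sham, with a difference from sham of 0.08 ± 0.22 (adjusted p = 0.78). Hapln1 was lower, at -2.63 ± 0.83 (adjusted p = 0.0451), with 0, 0, 2, 2, 5 and 19 counts in the treated libraries and 5 to 43 counts in the untreated ones. A count of 0 in these libraries allows up to 0.151 and 0.164 CPM (3 counts, counting error only, scaled to total counts without TMM factors). The Hapln1 call was kept in 2 of the 12 fits that left out 1 replicate. Hyal2 missed the threshold with -0.27 ± 0.09 (adjusted p = 0.05 after rounding). Has1, Has2, Vcan, Tnfaip6 and Cd44 had values of -0.17 ± 0.22, -0.13 ± 0.33, 0.01 ± 0.27, 0.00 ± 0.50 and -0.14 ± 0.38, and their treated and untreated ranges overlapped. Without treated replicate 1 the values of these genes were -0.33, -0.28, -0.19, -0.31 and -0.495 in the same order, and none passed. In that fit Hyal2 passed, at -0.29 ± 0.09 (adjusted p = 0.0461).

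In the same border zone libraries all 4 mural cell genes (Rgs5, Cspg4, Myh11 and Notch3, the last of which the study picked from these libraries) were higher with the sheet, and their summed level was 506 to 668 CPM in treated and 190 to 349 CPM in untreated hearts. Of 4 adipocyte genes 3 were tested and 2 were higher, with sums of 0.049 to 506 CPM in treated and 0 to 26.8 CPM in untreated hearts. Of 4 endothelial genes 1 was higher, with sums of 745.5 to 986.5 CPM in treated and 486.8 to 737.4 CPM in untreated hearts. None of 6 cardiomyocyte, 6 fibroblast, 4 myofibroblast or 5 macrophage genes passed. The part of these markers in the Hyal1 and Hapln1 values was not tested. With the infarct and border zone counts of each heart summed, Hyal1 was higher by 0.55 ± 0.14 (adjusted p = 0.0295) and Hapln1 lower, at -2.17 ± 0.58 (adjusted p = 0.0323), 2 of 9 members against 12.1% of all genes (6.02% higher and 6.09% lower). Of the 12 fits that left out 1 replicate, 6 kept the Hyal1 call and 4 the Hapln1 call, and a block on the replicate number ended the Hyal1 call.

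In the remote zone 1 of 9 members passed, against 17.1% of 15374 genes (10.3% higher and 6.79% lower). Hapln1 was lower with the sheet, at -2.57 ± 0.64 (adjusted p = 0.0203), at 0.300, 0.785 and 2.05 CPM in treated and 1.07, 3.85 and 16.4 CPM in untreated hearts. It passed in all 12 fits that left out 1 replicate, with values from -2.97 to -1.82, and did not pass with the replicate number as a block. The calls of Has1, Has2, Vcan, Tnfaip6, Cd44 and Hyal1 changed with a single library, the treated replicate 1 described above. Hapln3 and Hyal2 passed neither with nor without this library. Hyal1 also passed with this library kept, by DESeq2 and in the fit without untreated replicate 4. With treated replicate 1, the values were -0.77 ± 0.53 for Has1, -0.74 ± 0.47 for Has2, -0.69 ± 0.47 for Vcan, -0.66 ± 0.34 for Tnfaip6 and -0.76 ± 0.37 for Cd44, and none passed. That library was set apart by its Vcan level among others, so the adjusted p-values without it are not independent tests. Without treated replicate 1, 7 of 9 members passed, where 20.8% of all genes were higher and 20.8% lower. Lower values were then called for Has1 at -1.45 ± 0.40 (adjusted p = 0.0118), Has2 at -1.22 ± 0.40 (adjusted p = 0.0256), Vcan at -1.40 ± 0.28 (adjusted p = 0.00199), Tnfaip6 at -1.03 ± 0.27 (adjusted p = 0.00916) and Cd44 at -1.33 ± 0.18 (adjusted p = 0.000256). Hyal1 was higher by 0.62 ± 0.20 (adjusted p = 0.0223). In that fit 6450 genes passed in all, beside 2623 with the library included. In Vcan the other 5 treated remote libraries held 60.03, 63.7, 74.3, 109 and 138 CPM, the sham libraries 55.0 to 161 CPM and the untreated MI libraries 135 to 367 CPM. Mural cell genes were higher with the sheet in the remote zone too (3 of 4), 2 of 3 neutrophil genes tested and 1 of 6 fibroblast genes were lower, and 1 of 6 cardiomyocyte genes was higher. The part of these markers was not tested.

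**Figure D4:**
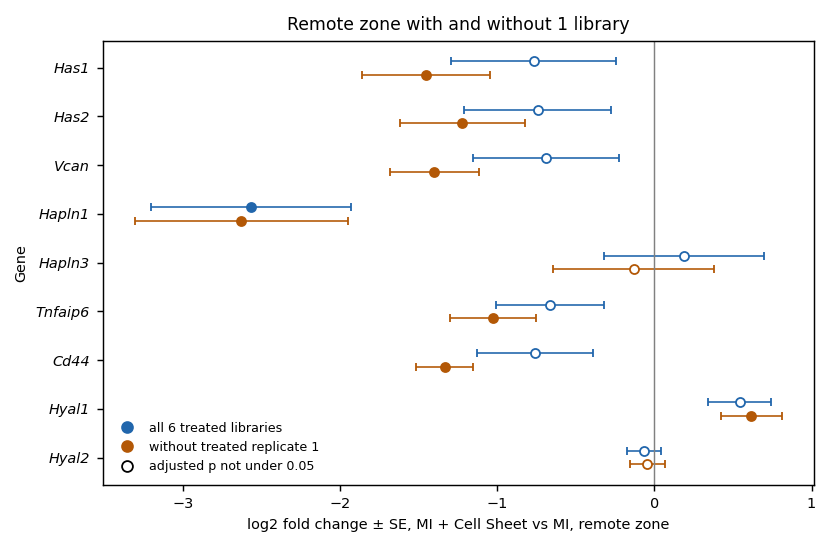
Log2 fold changes ± SE of the 9 genes between cell sheet-treated and untreated MI hearts in the remote zone, with all 6 treated libraries (blue) and without treated replicate 1 (orange); filled points have an adjusted p under 0.05. Hapln1 is filled in both, and 6 more genes are filled only without the library.

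The effect of the sheet was compared between zones by the same kind of interaction term. By edgeR no member and no gene passed between border and infarct zones (0% of 17275) or between border and remote zones (0% of 16784), with 1 member at an unadjusted p under 0.05 in each, 2012 and 3430 genes at that level, and 402 and 1183 genes called by DESeq2 with no member among them. For Hyal1, called in the border zone alone among the 3 zones, the difference between the 2 effects was 0.71 ± 0.30 (adjusted p = 0.381). For Vcan the effect in the border zone exceeded that in the remote zone by 0.95 ± 0.42 (adjusted p = 0.231), and by 1.17 ± 0.40 (adjusted p = 0.119) without treated replicate 1. In these 2 pairs of zones the effect of the sheet is therefore not shown to differ for any member. Its difference between the infarct and remote zones was not tested.

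Cell sheet-treated and sham hearts were also compared, with the same sham libraries as above. In the infarct zone Has1, Has2, Vcan and Tnfaip6 were higher by 1.87 ± 0.33, 1.97 ± 0.29, 2.15 ± 0.31 and 2.48 ± 0.30 (4 of 8 members tested, against 57.9% of all genes, 28.6% higher and 29.2% lower), with no overlap between the groups in any of the 4. The share of all genes without overlap was not counted. In these libraries 5 of 6 cardiomyocyte genes were lower than in sham, and 4 of 4 myofibroblast, 5 of 5 macrophage and 4 of 6 fibroblast genes were higher. Border zone values were higher by 1.24 ± 0.28, 1.41 ± 0.30, 1.86 ± 0.31 and 2.16 ± 0.41 (4 of 8, against 43.6%, 20.4% higher and 23.2% lower), where 1 of 6 cardiomyocyte genes was lower and 4 of 4 myofibroblast, 4 of 5 macrophage and 4 of 6 fibroblast genes were higher. The part of these markers was not tested. In the remote zone 0 of 9 members passed, and 1 of 15157 genes did (0.0066%) by edgeR. One member and 1520 genes had an unadjusted p under 0.05 there, and DESeq2 called 220 genes and no member. The remote zone values were 1.01 ± 0.53, 0.67 ± 0.43, 0.86 ± 0.50 and 0.77 ± 0.34 for Has1, Has2, Vcan and Tnfaip6. Without treated replicate 1 they were 0.31 ± 0.39, 0.18 ± 0.34, 0.13 ± 0.32 and 0.39 ± 0.26. Cd44 with all libraries had values against sham of 1.44 ± 0.65 in the infarct zone (adjusted p = 0.0746) and 0.77 ± 0.71 in the border zone (adjusted p = 0.396). Its remote zone value was -0.62 ± 0.70 (adjusted p = 0.826), and none passed. When sham replicate 5 was left out, Cd44 was higher by 2.72 ± 0.29 (infarct, adjusted p = 2.81e-05) and 2.17 ± 0.38 (border, adjusted p = 0.000555). The remote zone value was then 0.72 ± 0.40 (adjusted p = 0.404) and did not pass.

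**Figure D5:**
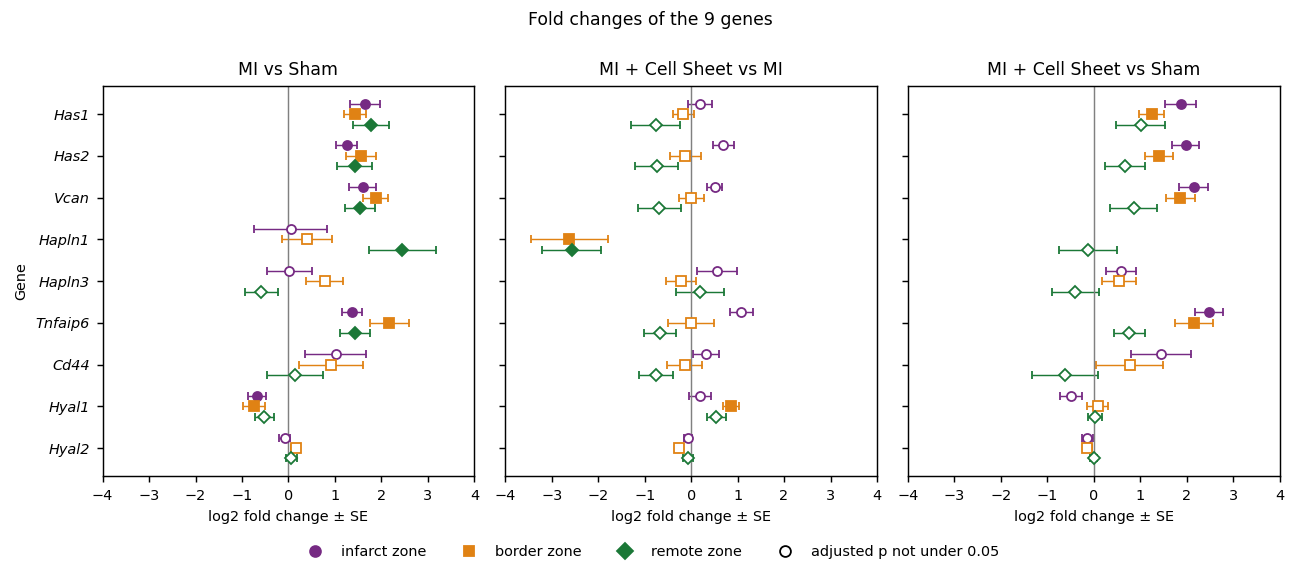
Log2 fold changes ± SE of the 9 genes in the 9 comparisons of treatments within a zone, with filled points where the adjusted p is under 0.05; the 3 panels share libraries, and Hapln1 is missing where it was too scarce to test. In the left panel Has1, Has2, Vcan and Tnfaip6 are filled to the right in all zones, and in the middle panel the filled points are Hyal1 in the border zone and Hapln1 in the border and remote zones.

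Ordered by their mean level, the 9 groups of Has1, Has2, Vcan and Tnfaip6 all began with the cell sheet-treated infarct zone, followed by the untreated MI border zone, and all ended with the 3 sham groups. No 2 neighbours in the order of any of the 9 genes were separate in range. For Vcan the means ran from 374 ± 101 CPM in the treated infarct zone, over 302 ± 74.4 CPM in the untreated border zone, 232 ± 93.0 CPM in the untreated remote zone and 144 ± 138 CPM in the treated remote zone, to 79.2 ± 40.6 CPM in the sham remote zone (SD, n = 6 each). Hyal1 had its highest mean in the treated remote zone at 20.1 ± 3.67 CPM and its lowest in the untreated infarct zone at 8.86 ± 2.41 CPM. All 9 means of Hyal2 lay between 43.6 and 53.1 CPM.

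Around the 9 members, 60 further genes of the same chemistry were counted, from the supply of nucleotide sugars to the enzymes of chondroitin sulfate chains. These genes too were chosen with earlier results of these data known. In the infarct zone of untreated MI against sham 49 were tested, 35 rose and 3 fell, with a median log2 fold change of 1.10 beside -0.02 over all genes, of which 22.7% were higher and 27.2% lower. Of the border zone values 33 rose and 3 fell of 49 (18.4% and 23.2% of all genes), and in the remote zone 24 rose and 2 fell of 48 (11.7% and 14.2% of all genes). All 6 tested lecticans and versican-binding matrix genes rose in the infarct zone, among them Fn1 (fibronectin) by 3.51 ± 0.33 and Tnc (tenascin C) by 3.05 ± 1.08. Of 7 precursor genes 4 rose and 1 fell. Ugdh, which makes the UDP-glucuronic acid that both synthases use, rose by 1.37 ± 0.26 and Pgm3 by 1.10 ± 0.20, while Ugp2, which makes UDP-glucose, fell by 1.48 on the log2 scale (SE 0.28). Among the breakdown genes, Cemip, which binds and depolymerizes hyaluronan, rose by 3.57 ± 0.67 and Gusb by 2.08 ± 0.43. Of the versican-cleaving proteases Adamts4 rose by 2.34 ± 0.31 and Adamts15 by 2.34 ± 0.18. The receptors Tlr2 and Stab1 rose by 1.99 ± 0.56 and 1.73 ± 0.21. Ptx3, a pentraxin that works with the Tnfaip6 product in cross-linking hyaluronan, rose by 3.41 ± 0.52, and Habp4 was lower, at -1.22 ± 0.28. Of the chain enzymes 10 of 12 rose, with Chsy3 at 2.00 ± 0.30 and Chpf at 1.65 ± 0.19, and Chst15 was lower, at -0.89 ± 0.26.

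The same 60 genes were then compared between cell sheet-treated and untreated MI hearts. In the infarct zone 0 of 51 tested passed by edgeR, where 0% of all genes did. In the border zone 3 of 49 were higher and 1 lower than in untreated MI, with a median of 0.05, where 8.47% of all genes were higher and 9.48% lower. Has3, the third hyaluronan synthase, was higher by 1.46 ± 0.37 (adjusted p = 0.0173), at a mean of 5.94 CPM against 2.19 CPM. Adamts9 was higher by 0.78 ± 0.20 and Chst3 by 0.71 ± 0.21, and Gnpnat1, an enzyme of the UDP-N-acetylglucosamine route, was lower, at -0.40 ± 0.08. Remote zone values gave 0 of 47 higher and 5 lower, with a median of -0.36, where 10.3% of all genes were higher and 6.79% lower. Without treated replicate 1 there were 2 of 48 higher and 33 lower, with a median of -0.74, against 20.8% of all genes in each direction. The 5 called with that library were the receptors Hmmr (-1.30 ± 0.34), Lyve1 (-0.94 ± 0.29) and Tlr4 (-0.86 ± 0.19), the lysosomal Hexa (-0.48 ± 0.16) and the proteoglycan Prg4 (-1.35 ± 0.31). Against sham, 38 of 50 rose and 4 fell in the treated infarct zone, where 28.6% of all genes were higher and 29.2% lower. In the treated border zone 34 of 50 rose and 4 fell, where 20.4% of all genes were higher and 23.2% lower. In the treated remote zone 0 of 49 passed, where 0.0066% of all genes did.

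Correlations of log2 CPM over the 54 libraries describe which genes moved together. The libraries share hearts and differ in cell makeup, and no test was made. Has2, Vcan and Tnfaip6 formed the closest trio, at r of 0.93 for Has2 and Vcan, 0.929 for Has2 and Tnfaip6 and 0.922 for Vcan and Tnfaip6. With the 9 group means subtracted these were 0.813, 0.809 and 0.759. Has1 followed Vcan at 0.901 and Has2 at 0.87. Cd44 ran with Vcan at 0.862 and against Hyal1 at -0.746, and the largest r of Hyal2 with any member was 0.316, with Hapln1. Among all genes of sufficient level the closest to Vcan were Postn (0.965), Anxa2 (0.964) and Plod2 (0.962), and 350 of 13299 genes exceeded 0.9. The closest to Has1 were Gfpt2 (0.934), an enzyme at the entry of the UDP-N-acetylglucosamine route, Mfap5 (0.912) and Atl3 (0.906). The closest to Has2 beyond Vcan and Tnfaip6 was Cemip2 (0.912), and to Tnfaip6 beyond Has2 they were Adamts4 (0.928) and Clmp (0.923). Cd44 reached 0.983 with Nfam1, a gene of immune cells, and 0.98 with Actb. Hyal1 lay nearest to Mpdz (0.912), Cacna1c (0.908) and RGD1565616 (0.906). Hapln1 reached 0.708 with Zbtb6 and Dek and 0.67 with Cgnl1, Hapln3 reached 0.528 with Cntn2, and Hyal2 reached 0.59 with Psmd8.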

How the data were processed

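Polyadenylated RNA from the left ventricles of 18 athymic rats gave 54 libraries, 1 per heart and zone. The deposited labels give each library's treatment, zone and number. They name the replicates of a group technical, whereas the study describes 6 hearts per group in one place and 5 to 6 in another; each library was taken as 1 animal and zone, and if the label holds, p-values measure technical spread alone. The 15 pairs within each group differed beyond counting noise (chi-square per degree of freedom from 7.97 to 539), and no library was counted as a repeat.

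The authors used STAR for trimming and for alignment to mRatBN7.2, assigned reads to an annotation release and deposited raw whole-number counts per gene. Neither the counter nor a strand setting is given in the sources used here, so reads of overlapping genes cannot be told apart by strand. The 5 summary lines of each table held 17.0% to 42.8% of a library's counts and were left out. Depths of 12699204 to 23397754 counts leave counting error largest for Hapln1 and Hapln3, and Has1 and Has2 also had as few as 19 and 35 counts in a sham library.

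Computations used R 4.3.3 with edgeR 4.0.16 (TMM factors, filterByExpr on the groups compared, quasi-likelihood F test on the counts, Benjamini-Hochberg adjustment over all genes tested, threshold 0.05). SE is the absolute log2 fold change divided by the square root of F. Each fit held only the groups compared. Zones of the same hearts and the interactions had the animal as a block, and for the joint comparison of infarct and border zones each heart's counts were summed. Numbers shared by different treatments name different rats. Correlations of same-numbered deviations ran from -0.63 to 0.51 between different rats, with medians from -0.20 to 0.06. Between zones of the same heart they ran from -0.46 to 0.93, with medians from -0.15 to 0.35. These ranges overlap and cannot decide which samples pair, so the pairing of zones rests on the labels and the study's description. Correlations used log2 CPM with a prior count of 2. Alternatives were DESeq2 1.42.0, no filter, no TMM factors, all 9 groups in 1 fit, the replicate number as a block and leaving out each animal in turn. Each kind of test was first run on simulated counts, where the fit between zones of MI hearts made a larger share of false calls than the threshold, so adjusted p-values between zones of the same hearts may be too small. Promoter windows came from RefSeq on GRCr8, which is not the assembly of the counts, and no position from it was joined to the counts.

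The members, the 60 pathway genes, the 45 marker genes and the tests were chosen with earlier results of these data known. The text names every member, and in each role of the pathway list the 2 called genes with the largest change in each direction for untreated MI against sham in the infarct zone and for treated against untreated MI in the border and remote zones. Tlr4, which that limit leaves out, was added after its value was seen. The likeness rule names the 3 genes with the highest r among those with a mean log2 CPM of at least 1, shortened to 1 for Hapln3 and Hyal2; a gene it names for Cd44 and a marker list are not reported here.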

Additional observations from a re-analysis of the deposited data

Results flagged for a closer look

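Of the 81 sets of 6 libraries (9 genes in 9 groups), 21 held a library whose gap to the nearest of the others exceeded Dixon's 95% critical share of the range for 6 libraries. Chance flags about 1 in 20 sets of normally distributed values. The CPM were not checked for this, and the sets share libraries, so that rate need not hold here. The flags fall mostly into 2 hearts. Sham replicate 5 was flagged for Cd44 in the remote, border and infarct zones (237, 269 and 236 CPM), for Vcan in the same zones (161, 149 and 187 CPM), and in the remote zone for Has2 (6.80 CPM) and Hyal1 (12.7 CPM, the lowest of its group). The remote zone library of cell sheet-treated replicate 1 was flagged for Has1 (18.2 CPM), Vcan (418 CPM), Tnfaip6 (19.8 CPM) and Cd44 (103 CPM), all high. Its Has2 value, 14.8 CPM, was also the highest of its group and was not flagged.

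The other flags fell on 7 further libraries. Cell sheet-treated infarct zone replicate 2 was high for Has2 (34.0 CPM) and Tnfaip6 (73.8 CPM), and untreated MI infarct zone replicate 1 was high for Hyal1 (13.5 CPM) and Hapln1 (3.50 CPM). Hapln1 was also high in untreated MI remote zone replicate 4 (16.4 CPM), in cell sheet-treated border zone replicate 4 (0.83 CPM) and in cell sheet-treated infarct zone replicate 6 (0.587 CPM). Has1 was low in untreated MI border zone replicate 6 (8.14 CPM), and Hapln3 was high in untreated MI border zone replicate 5 (2.40 CPM). The effect of MI on Cd44 differed between the infarct and remote zones, by 0.90 on the log2 scale, in a test of the difference itself, a call that was lost without sham replicate 3, without MI replicate 6 or without the animal block.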

How the results depend on the processing

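Of 2162 fold changes recomputed under the alternatives for 140 pairs of a member and a comparison, 0 reversed a call, 45 lost one and 42 gained one, and 102 of those called in neither setting changed sign. Has1, Has2, Vcan and Tnfaip6 passed in untreated MI against sham under every alternative and without any 1 replicate, in all 3 zones.

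DESeq2 called 1 member in place of 0 between treated and untreated MI infarct zones (Tnfaip6, with 85 genes against 0), 2 in place of 1 in the remote zone (with Hyal1), 3 in place of 2 in the border zone (with Hyal2) and 6 in place of 4 between treated and sham infarct zones (with Cd44 and Hyal1). With the animal as a block it called 3 in place of 1 between zones of MI hearts (with Hapln1 and Hyal1) and 2 in place of 1 for the MI effect between zones (with Hapln1). Over all genes it called 220 against 1 between treated and sham remote zones, 3346 against 2179 for the summed zones, and 402 and 1183 against 0 in the 2 tests of the sheet effect between zones. Without a filter the border zone kept 1 of 2 members (Hyal1), the zones of MI hearts gave 2 in place of 1, and the summed zones 1378 genes against 2179. With all 9 groups in 1 fit, 6 genes passed between treated and untreated infarct zones and 183 between treated and sham remote zones. Scaling to total counts shifted the median of all genes against sham by 0.06 to 0.27 and turned the split in the infarct zone of MI from 3580 higher and 4286 lower to 5587 and 2735.

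The replicate number as a block pairs different rats, which share only a number, and same-numbered pairs had correlations from -0.63 to 0.51. With this block 1 of 2 members remained between treated and untreated border zones (Hapln1, with 1214 genes against 2922), 0 of 1 in the remote zone (2 genes against 2623), 1 of 2 for the summed zones (Hapln1, with 477 genes against 2179), and 4193 genes against 6517 in the border zone of MI. Hyal1 lost its border zone call in MI against sham and gained 1 in the remote zone, and Cd44 gained 1 in the infarct zone of MI and of treated hearts. Without the animal block, 0 in place of 1 member passed between zones of sham hearts (1081 genes against 4878), 3 in place of 1 in MI hearts, 0 in place of 1 for the MI effect (1431 genes against 4748), and the tests of the sheet effect gave 80 and 6 genes against 0. The cause of these shifts was not tested.

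Leaving out 1 replicate moved the number of members called from 1 to 2 between treated and untreated border zones (main value 2; 1941 genes in place of 2922 without treated replicate 2), from 1 to 7 in the remote zone (main 1), from 0 to 2 for the summed zones (main 2), from 0 to 2 between zones of MI hearts (main 1) and from 0 to 2 for the MI effect between zones (main 1). The counts of all genes in the remote zone ran from 1096 without untreated replicate 5 to 6450 without treated replicate 1, and also moved by over 1.5 times without untreated replicates 3 or 4 and treated replicates 2, 3, 5 or 6. For the summed zones they fell to 1223 without treated replicate 2, between zones of MI hearts to 3236 without MI replicate 4, and between treated and sham remote zones they lay between 0 and 17. Without sham replicate 5 the remote zone of MI gave 7177 genes against 3952. Without MI replicate 6 the test of the sheet effect between border and remote zones gave 84 genes and without treated replicate 1 it gave 216, against 0. The fits without a replicate include a count of 5 hearts in 1 group. Hapln1 and Hapln3 had the fewest counts of the members, and the effect of more depth or more hearts was not tested.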
